A study of Mus musculus with 6 samples.

Results

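The data are RNA-seq profiles of ileal crypts, the pits of the epithelium in the last part of the small intestine, and the subject here is a set of 9 genes of goblet cell mucus and its processing out of 7120 genes in the table. The members were chosen by name, with earlier results of these data known, and all 9 were found. They are the mucins Muc2 and Muc13, the secreted proteins Fcgbp and Spink4, the folding and sensing genes Agr2 and Ern2, the glycosyltransferase gene Galnt12, and the transcription factor genes Spdef and Creb3l1. Crypts of Tl1a-transgenic mice (Tl1a-tg, 3 libraries) were set against crypts of wild-type mice (WT, 3 libraries), all C57BL/6 and 3 months old, and all cut by laser from sections of Methacarn-fixed, paraffin-embedded ileum. The labels name neither the promoter nor the cells that drive the transgene, and do not say whether each library is a separate mouse, so the spread behind the authors' p-values may be technical. A difference in such bulk RNA cannot tell fewer goblet cells from less RNA per cell.

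Goblet cells lie between the stem, Paneth and absorptive cells of the crypt and secrete the gel that separates the epithelium from bacteria. The gel is built on MUC2, a very large glycoprotein that is joined into networks by disulphide bonds, folded in the endoplasmic reticulum with the help of AGR2, and coated with O-linked sugars in the Golgi, a process that enzymes of the GALNT family begin. ERN2, also called IRE1-beta, senses unfolded protein in mucus-making cells, and SPDEF drives goblet cell maturation.

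Promoter sequence is shown for the most abundant gel component and for the members read almost entirely in one genotype, where the RefSeq windows of GRCm38.p6 held the gene. Windows were found for 5 members (Muc2, Muc13, Fcgbp, Agr2 and Spdef). Each stretch below runs 5′ to 3′ on the gene's strand from 250 to 31 bases before the annotated start, and capitals mark matches on either strand to 4 motifs. The first was CAGCTG, an E-box bound by ATOH1 and other helix-loop-helix factors. The second was TGTTTNC, a forkhead element. The third was ACGTG, a core of XBP1 and CREB3 family elements. The last was TATAAA, bound by the general transcription machinery.
Muc2 (chr7:141690090-141690309, + strand): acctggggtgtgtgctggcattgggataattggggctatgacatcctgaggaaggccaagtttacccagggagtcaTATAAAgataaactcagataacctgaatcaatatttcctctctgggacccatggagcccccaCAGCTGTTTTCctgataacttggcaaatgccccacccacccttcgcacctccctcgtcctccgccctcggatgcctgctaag
Agr2 (chr12:35992675-35992894, + strand): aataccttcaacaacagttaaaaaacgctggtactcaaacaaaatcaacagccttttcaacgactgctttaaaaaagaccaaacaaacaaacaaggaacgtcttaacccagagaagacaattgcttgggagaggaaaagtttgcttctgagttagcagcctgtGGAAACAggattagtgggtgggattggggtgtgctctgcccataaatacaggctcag
Spdef (chr17:27728982-27729201, - strand): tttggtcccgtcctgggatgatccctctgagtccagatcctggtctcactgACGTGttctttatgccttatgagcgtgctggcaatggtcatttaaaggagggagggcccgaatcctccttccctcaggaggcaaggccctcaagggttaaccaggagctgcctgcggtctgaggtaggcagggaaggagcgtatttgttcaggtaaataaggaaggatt
Fcgbp (chr7:28070986-28071205, + strand): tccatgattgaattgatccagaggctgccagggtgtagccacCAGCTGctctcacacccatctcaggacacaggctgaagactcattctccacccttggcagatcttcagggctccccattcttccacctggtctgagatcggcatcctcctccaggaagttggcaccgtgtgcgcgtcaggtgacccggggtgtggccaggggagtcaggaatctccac

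The Muc2 stretch held the E-box at 112 to 107 bases before the start, where it overlapped a forkhead match at 108 to 102, and a TATAAA at 174 to 169. The Fcgbp stretch also held CAGCTG, the Agr2 stretch a forkhead match on the opposite strand, and the Spdef stretch ACGTG. Over all 32851 windows of this length, 11.4% held CAGCTG, 15.9% TGTTTNC, 14.4% ACGTG and 9.95% TATAAA, so each of these matches is common. None of the 4 motifs was shared by all 4 stretches.

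Setting Tl1a-tg against WT crypts addressed whether mucus genes differ between the genotypes. The main secreted products, Muc2 and Spink4, had nearly equal means in Tl1a-tg and WT crypts, while Ern2 and Agr2, which serve the folding of mucin, were read at 282 and 186 reads per library in Tl1a-tg and hardly or not at all in WT. Spdef and Galnt12 were likewise read in Tl1a-tg alone, at 35.1 and 38.4 reads per library, and Fcgbp at a trace in WT alone. None of the 9 genes passed the authors' test after adjustment over all genes (0 of the 6 with an adjusted DESeq2 p in the authors' deposited table), and 2 had an unadjusted p below 0.05. In the background of this comparison 3.67% of 1662 genes passed after adjustment, and 14.6% of 2580 genes had an unadjusted p below 0.05. With near-0 means set to the value of genes without reads and the authors' DESeq2 standard errors kept, 0 of the 1662 genes passed, and 334 had an unadjusted p below 0.05.

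For each gene the deposited values hold a single fitted mean in each genotype, scaled by a factor of each library. The 3 values of a genotype therefore differ by the same factors for every gene, carry no spread of their own, and get no SD here. A mean at the common depth is that fitted mean with the library factors divided out. The only error given is the standard error of the authors' model. A fitted value that 1939 genes share in Tl1a-tg (0.193) and 2981 in WT (0.176), or one near 0 (below 0.01), was taken as a genotype without reads, an inference from the values.

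Among the secreted mucus proteins, Muc2 had deposited values of 12678, 13833 and 9802 reads in Tl1a-tg replicates 1 to 3, against 17881, 7917 and 19510 in WT replicates 1 to 3. Within a genotype these values differ by the library factors alone. At the common depth the means were 12552 in Tl1a-tg and 13390 in WT. Muc2 ranked 2 among all 7120 genes by reads in both genotypes and made up 3.55% of the fitted total without the ribosomal RNA precursor Rn45s in each. The authors' deposited table puts its log2 fold change at -0.09 (standard error 1.99, adjusted DESeq2 p = 0.999), a fold of 0.937 with a 95% interval of 0.0631 to 13.9. The sign of this value turned when measured genes were centred or Rn45s was left out of the total.

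Spink4, which encodes a Kazal-type protease inhibitor of goblet cells, followed the same pattern, with 7921, 8643 and 6125 reads in the Tl1a-tg libraries and 9400, 4162 and 10257 in the WT libraries. Its means at the common depth were 7843 in Tl1a-tg and 7039 in WT, rank 5 and rank 7 of all genes. The authors' deposited table puts its log2 fold change at 0.16 (standard error 1.996, adjusted DESeq2 p = 0.999), and the sign turned when library factors were left in. Muc2 and Spink4 together made up 93.9% of the reads of the 9 genes in Tl1a-tg and 97.9% in WT. The 7 other genes summed to 1319 reads per library in Tl1a-tg and 430.2 in WT.

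Muc13, a membrane-bound mucin carried by many intestinal epithelial cells and not by goblet cells alone, had 535, 584 and 413 reads in the Tl1a-tg libraries, against 430, 190.5 and 469 in the WT libraries. At the common depth this was 529 in Tl1a-tg and 322 in WT. The fold of 1.64 had a 95% interval of 0.0704 to 38.4 and was not told apart from no difference (adjusted DESeq2 p = 0.999 in the authors' deposited table).

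Fcgbp, a large cysteine-rich protein bound to the mucus gel, was the member with the fewest reads. It was near 0 in all 3 Tl1a-tg libraries and had 1.44, 0.638 and 1.57 in the WT libraries, which sums to 3.65 expected reads in WT. Its log2 fold change of -17.32 in the authors' deposited table rests on a fit near 0 and is no measured size. The table gives it no p-value. At this depth no difference in Fcgbp was detectable.

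**Figure D1:**
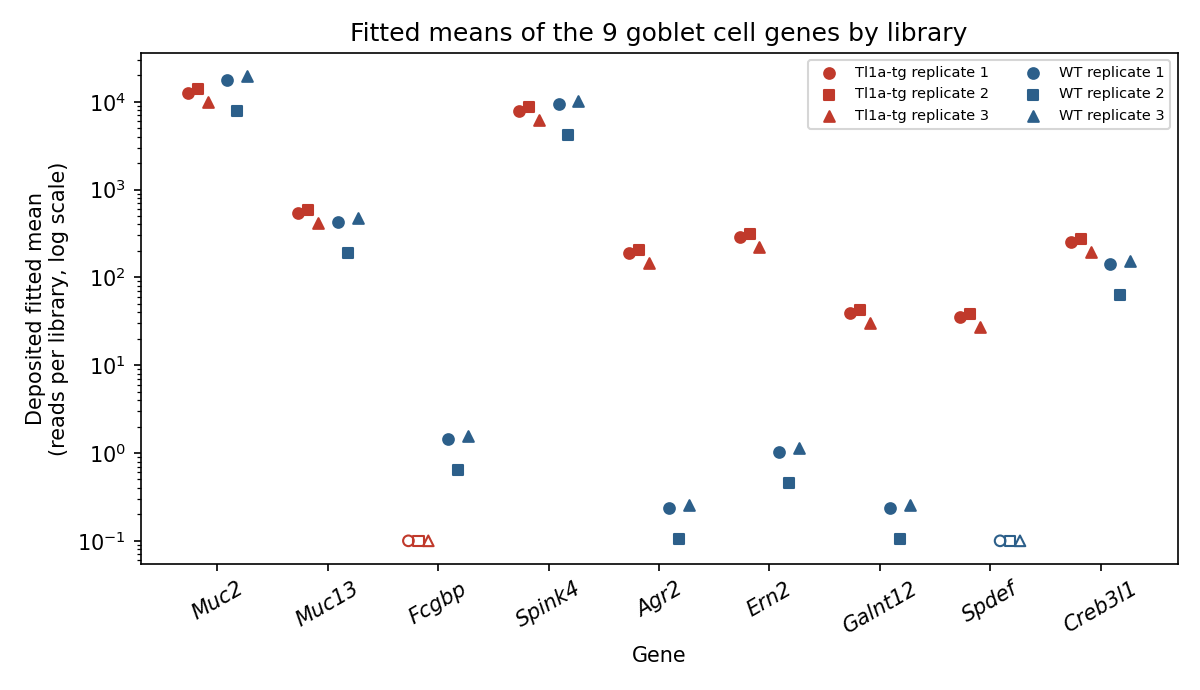
Deposited fitted means (reads per library, log scale) of the 9 goblet cell genes in each library, Tl1a-tg in red left of WT in blue, with 1 symbol per replicate number and open symbols for values below 0.1. Muc2 and Spink4 overlap between genotypes, whereas the fitted values of Agr2, Ern2, Galnt12 and Spdef lie at 27.4 or more in Tl1a-tg and at 1.13 or less in WT. All values of a gene in a genotype come from 1 fitted mean, so they are not separate replicates. The spread within a genotype is the library factor and no replicate error.

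The genes of mucin folding stood furthest apart between genotypes among members with a p-value. Ern2 had 285, 311 and 220.5 reads in the Tl1a-tg libraries, against 1.03, 0.458 and 1.13 in the WT libraries. Over the 3 WT libraries this is 2.62 expected reads, against 817 over the 3 Tl1a-tg libraries. The log2 fold change in the authors' deposited table was 8.51 (standard error 3.45, 95% interval 1.74 to 15.28) and its p was 0.0137, which became 0.23 after DESeq2's Benjamini-Hochberg adjustment.

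Agr2, a protein disulphide isomerase without which mice make little intestinal mucus, had 188, 205 and 145 reads in the Tl1a-tg libraries. In WT it was at the value of genes without reads, 0.234, 0.104 and 0.256. Its log2 fold change of 10.05 (standard error 4.41) in the authors' deposited table depends on that value, and its p of 0.0226 became 0.23 after DESeq2's adjustment. By rank, Agr2 lay in the top 2.28% of genes by reads in Tl1a-tg.

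Galnt12, one of the enzymes that attach the first sugar of O-glycans, had 38.8, 42.3 and 30.01 reads in the Tl1a-tg libraries and none in WT, where its values were 0.234, 0.104 and 0.256. Its log2 fold change in the authors' deposited table was 7.77 (standard error 4.41), with a 95% interval of -0.87 to 16.42 that includes 0, and no p-value is given. For Ern2, Agr2 and Galnt12 the values by library follow from 1 fitted mean per genotype. How many libraries of Tl1a-tg held the reads therefore cannot be read from them.

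The transcription factor genes split. Spdef had fitted values of 35.4, 38.7 and 27.4 reads in the Tl1a-tg libraries and values near 0 in all 3 WT libraries. These too follow from 1 fitted mean per genotype, so how many Tl1a-tg libraries held the reads cannot be told. The log2 fold change of Spdef, 20.01 in the authors' deposited table, has no p-value and, like that of Fcgbp, follows from a value fitted near 0. Creb3l1, which encodes a membrane-bound factor of the endoplasmic reticulum that is cleaved to reach the nucleus, was read in both genotypes. It had 250.01, 273 and 193 reads in the Tl1a-tg libraries and 141, 62.6 and 154 in the WT libraries, a fold of 2.34 with a 95% interval of 0.0609 to 89.7 (adjusted DESeq2 p = 0.999 in the authors' deposited table).

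**Figure D2:**
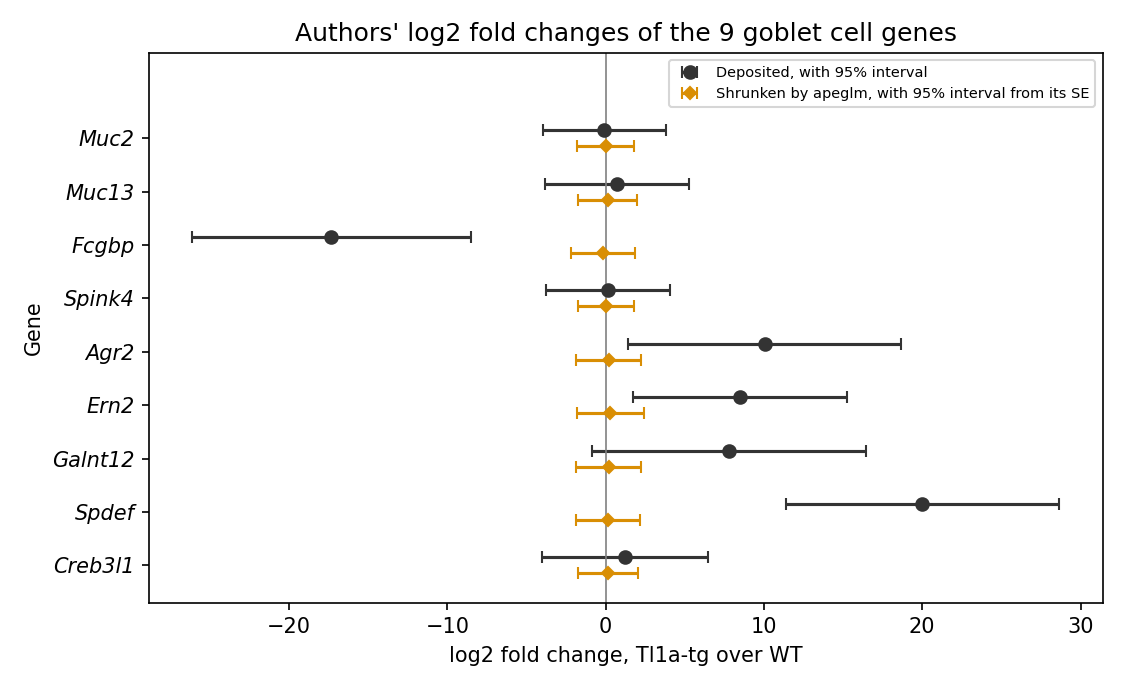
Log2 fold changes of Tl1a-tg over WT from the authors' deposited tables for the 9 goblet cell genes, with bars for the 95% interval from each standard error, as fitted (black) and shrunken by apeglm (orange). All 9 shrunken values lie between -0.14 and 0.30, while the fitted values of Fcgbp, Agr2, Ern2, Galnt12 and Spdef lie 7.77 or more away from 0.

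By sign, the log2 fold change was above 0 for 7 members and below 0 for 2, or 77.8% positive, beside 58.3% of the 5846 genes read in at least 1 genotype. Their median log2 fold change was 1.22, beside 1.096 for those 5846 genes. With genotypes without reads placed at 3 reads over their 3 libraries, the medians were 1.22 and 0.88. Scaling alternatives gave 6 to 8 positive members. Shrinkage by apeglm brought the members' values to within 0.30 of 0, with 0.30 for Ern2, 0.18 for Agr2 and -0.14 for Fcgbp.

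A mean of at least 10 reads in both genotypes was reached by 4 of 9 members (44.4%; Muc2, Spink4, Muc13 and Creb3l1), beside 19.4% of all genes. Reads in both genotypes were found for 5 members, beside 34.4% of all genes. Reads in Tl1a-tg only were found for 3 members (Agr2, Galnt12 and Spdef), beside 31.4% of all genes, and reads in WT only for 1 member, Fcgbp, beside 16.3%. A pattern of reads in 1 genotype alone was thus common in the table.

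**Figure D3:**
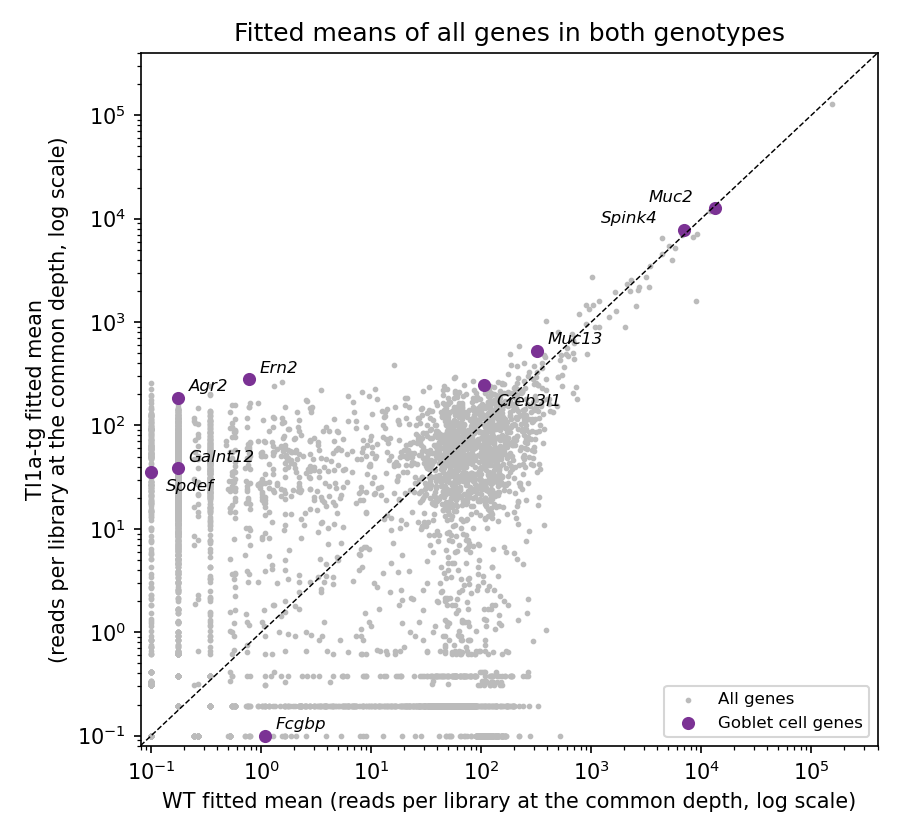
Fitted means at the common depth of all 7120 genes, Tl1a-tg on the vertical and WT on the horizontal axis (log scales; values below 0.1 drawn at 0.1), with the goblet cell genes in purple and equality as a dashed line. Muc2 (12552 in Tl1a-tg, 13390 in WT) and Spink4 lie on the line at the top, and Agr2, Ern2, Galnt12 and Spdef lie in the bands at the left edge with many other genes.

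The errors behind these values were wide. The dispersion that reproduces each deposited standard error was 2.84 for Muc2 and 2.87 for Spink4, which corresponds to a coefficient of variation between libraries of 169% for each. It was 3.87 for Muc13, 5.19 for Creb3l1 and 7.96 for Ern2. For Agr2, Galnt12, Spdef and Fcgbp it lay at a ceiling of 13, as for 76.4% of all genes, so their standard errors do not estimate a measured spread. The narrowest 95% interval of any member, that of Muc2, reached 3.89 to either side on the log2 scale, or 14.8-fold. Smaller differences were not detectable.

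Reads per kilobase of the longest complete coding transcript in GENCODE M21 allow levels of the members to be ordered. Muc2 was left out, since its annotated coding transcripts, at most 2926 bases long, do not span the mucin. In Tl1a-tg Spink4 came first with 19756 reads per kilobase, followed by Agr2 (237), Muc13 (178), Ern2 (96.9), Creb3l1 (95.1), Spdef (18.3) and Galnt12 (16.8). In WT the order of the members read was Spink4 (17731), Muc13 (108), Creb3l1 (40.7), Ern2 (0.266) and Fcgbp (0.136). Agr2, the second of the listed genes per length in Tl1a-tg, was without reads in WT. Without replicate values the order of neighbours such as Ern2 and Creb3l1 in Tl1a-tg cannot be tested.

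Genes with the most similar pair of means were found by distance on the log2(mean + 1) scale over the 2 genotypes. The abundant goblet products Muc2 and Spink4, and the less abundant membrane mucin Muc13, lay next to Paneth cell alpha-defensins. Muc2 was nearest to Defa24 (11784 in Tl1a-tg, 11903 in WT), Spink4 to Defa17 (8263 and 6962) and Muc13 to Defa26 (479 and 373). Reads of defensin genes may be divided among very similar copies, so the value of each is uncertain. Agr2 was nearest to Arf4, a small GTPase of Golgi traffic (186 in Tl1a-tg, no reads in WT), and Ern2 to Gal3st3 (240.0 and 1.30), a galactose sulphotransferase. Creb3l1 was nearest to the ribosomal protein gene Rpl3 (251 and 109), Spdef to Cd55, Galnt12 to Brf1 and Fcgbp to Pak6. With only 2 values per gene, many genes lie this close by their level alone.

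The authors' deposited table also gives each gene a mean over the libraries of their model, and for the goblet cell genes this mean was only in part accounted for by the 6 libraries. For 2095 genes the sum of the 6 libraries' means was 44.8 times the deposited mean, within 1%, and 0 genes exceeded this ratio by more than 2%. Read as the ratio of genes found in these 6 libraries alone, it places 46.3% of the mean of Muc2 in other libraries, which were not analysed here. The share was 34.7% for Spink4, 44.1% for Muc13, 30.7% for Agr2, 32.6% for Ern2 and 29.95% for Galnt12. It was 71.4% for Creb3l1, 81.7% for Spdef and 98.9% for Fcgbp, beside a median of 26.1% over the 5846 genes read in these libraries. Those 5846 genes include the 2095 at the ratio of 44.8, whose share is near 0 by this reading. The median is therefore not the share that a gene read alike in all libraries would have. Whether shares above it set goblet cell genes apart was not tested. Both members with a value fitted near 0, Spdef and Fcgbp, thus had the largest shares among the 9.

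**Figure D4:**
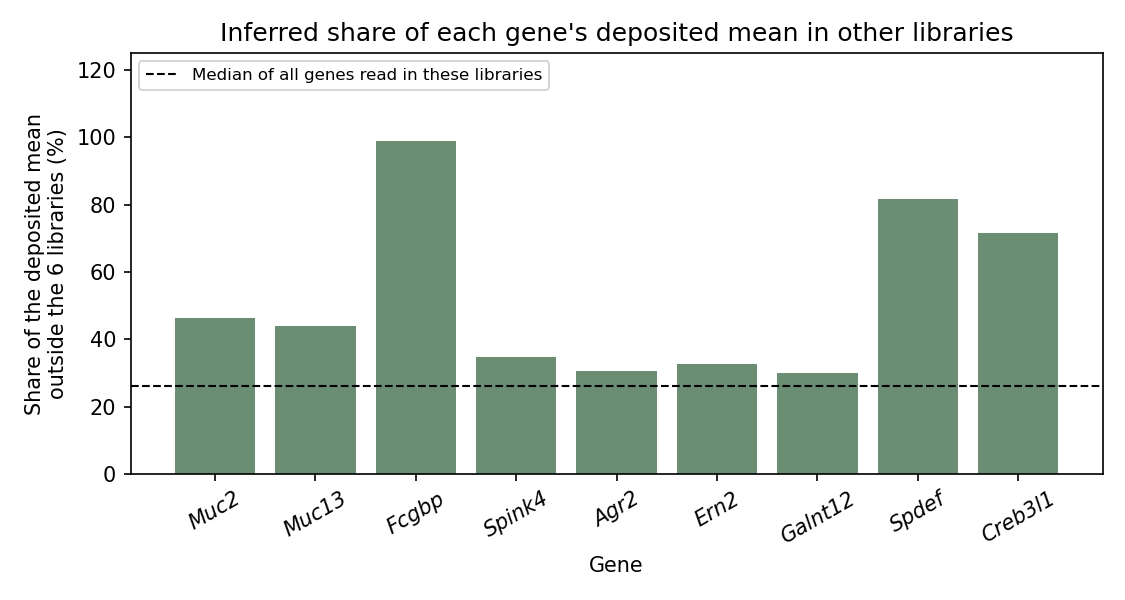
Share of the authors' deposited mean (%) that was inferred to lie outside the 6 libraries, for each goblet cell gene, with the median of all genes read in these libraries (26.1%) as a dashed line. All 9 bars lie above the line, from 29.95% for Galnt12 to 98.9% for Fcgbp.

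Of the wider lists on mucus biology, 165 genes in all, 102 were in the table, 93 of them besides the 9 members. Of these 93, 49 had a p-value in the authors' deposited table and 7 an unadjusted p below 0.05, 5 higher and 2 lower in Tl1a-tg, beside 14.6% of all genes with a p-value, while 0 of the 40 with an adjusted DESeq2 p passed. The list of gel-forming and surface mucins held 1 further gene, Muc4, a membrane mucin, which averaged 496 reads per library in Tl1a-tg, against 184 in WT (log2 fold change 1.43, standard error 2.58 in the authors' deposited table).

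The counts by list that follow include the members each list holds. Of 13 secreted products other than mucins in the table, Spink4 and Fcgbp among them, 4 were higher and 9 lower by fitted mean in Tl1a-tg. Their median log2 fold change was -0.17. The ribonuclease-family gene Ang4, made by Paneth and goblet cells, had 6603 in Tl1a-tg and 8481 in WT. The lectin gene Itln1 had 3983 and 5420. The guanylin genes differed in sign, with 240.3 in Tl1a-tg and 119 in WT for Guca2a, and 27.9 and 227 for Guca2b. Lypd8, which encodes a secreted protein that binds flagella, had 5.82 in Tl1a-tg, against 197 in WT. Of the 9 with a p-value in the authors' deposited table, 0 had an unadjusted DESeq2 p below 0.05. Among those without one, Lgals4, a galectin gene named for its values, was near 0 in Tl1a-tg, against 103 in WT.

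Goblet cell transcription factors numbered 14 in the table, 8 positive and 6 negative, with a median of 0.62 over all and -0.28 over the 7 with at least 10 reads in both genotypes. Against the direction of Spdef, Foxa3, a forkhead factor gene, was without reads in Tl1a-tg, against 242 in WT, with p = 0.0195 that became 0.23 after adjustment in the authors' deposited DESeq2 table. Xbp1, the factor activated by IRE1 enzymes, had 0.311 in Tl1a-tg against 97.0 in WT. Klf4 had 34.8 and 0.342, and Sox9 432 and 524. Bhlha15, a factor of secretory cell maturation, had 140.3 in Tl1a-tg and 305 in WT.

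Of 33 mucin O-glycosylation genes in the table, 20 lay higher and 12 lower by fitted mean in Tl1a-tg, and 1 had no reads in either genotype. Reads were found in Tl1a-tg only for 11, beside 31.4% of all genes, and in WT only for 3, beside 16.3%. The sialyltransferase gene St3gal6 had 95.6 in Tl1a-tg and 0.342 in WT (p = 0.0371), and Slc35a3, a Golgi transporter of UDP-N-acetylglucosamine, had 75.1 and no reads (p = 0.0404), both 0.23 after DESeq2's adjustment in the authors' deposited table. Among better read genes, Galnt7 had 203 in Tl1a-tg and 73.2 in WT, B4galnt2 had 126 and 183, and B4galt1 124 and 154. The median log2 fold change was 2.88 over the 33 genes and -0.41 over the 13 with at least 10 reads in both genotypes, so its sign depended on genes with few or no reads in 1 genotype.

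Of 23 folding and sensing genes, 16 lay higher and 7 lower by fitted mean in Tl1a-tg, with a median log2 fold change of 5.44 over all and 0.04 over the 8 with at least 10 reads in both genotypes. Pdia3, a glycoprotein disulphide isomerase, had 166 in Tl1a-tg against 0.789 in WT. The abundant chaperone genes P4hb, Calr and Txndc5 had 374 and 302, 318 and 175, and 132 and 154. In the other direction Tmed3, a cargo receptor gene of the early secretory pathway that was picked out by its values, was without reads in Tl1a-tg, against 90.4 in WT. Of 17 genes of granule release and ion transport, 8 were positive and 7 negative. Marcks had 65.7 in Tl1a-tg, against 0.751 in WT, and the chloride channel gene Cftr had 69.8 and no reads. Slc12a2, the basolateral chloride importer, had 296 in Tl1a-tg, against 494 in WT, and Rab3d, of secretory granules, had 220.1 against 118.

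Marker genes of the cell types that crypt sections can hold were summed at the common depth. The goblet list had 5 of 8 genes in the table, which summed to 20617 reads in Tl1a-tg and 20430.2 in WT. All 5 (Muc2, Spink4, Fcgbp, Agr2 and Spdef) are members. Their sums rest mostly on Muc2 and Spink4 and are no separate measure of goblet cells. Fcgbp was without reads in Tl1a-tg, and Agr2 and Spdef were without reads in WT. The 7 Paneth cell markers, all in the table, summed to 36499 in Tl1a-tg and 39678 in WT, and 4 stem cell markers to 1136 and 969. Enterocyte markers (3 of 7) summed to 218 in Tl1a-tg and 57.6 in WT, tuft cell markers (3 of 4) to 19.4 and 247, enteroendocrine markers (3 of 5) to 28.7 and 114, immune markers (2 of 5) to 0.621 and 76.6, and stromal markers (3 of 6) to 67.5 and 4.06. Apoa1 of enterocytes, Chga of enteroendocrine cells and Acta2 of smooth muscle had no reads in either genotype. From the same lists Anpep, Vil1, Gcg and Vim were read in both genotypes, Chgb in WT alone and Col1a1 in Tl1a-tg alone. The part of these differences in the values of Ern2, Agr2, Spdef and Galnt12 was not tested. Tnfsf15, the gene of TL1A, was near 0 in both genotypes, so the genotype labels could not be checked by it. The sums of fitted means, which are not read depths, ranged from 376022 to 530625 in the Tl1a-tg libraries and from 314186 to 774249 in the WT libraries.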

How the data were processed

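The submitters' processing notes name RSEM 1.2.15, Bowtie2 2.1.0, Trimmomatic, FastQC and DESeq2 without their roles. For genome build and annotation: not given in the sources used here. The authors' deposited signal values, called normalized counts in the sheet name, proved to be fitted means of each genotype scaled by library: ratios of columns of a genotype were the same for every gene. No replicate test, limma fit or interval from counts was therefore possible, and the depth is unknown. The authors' deposited tables also hold log2 fold changes with standard errors, Wald statistics (a score), p-values and Benjamini-Hochberg adjusted p-values from DESeq2, which may rest on libraries beyond these 6. Genes were called at an adjusted p below 0.05, and missing p-values stayed missing.

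From these, library factors (geometric mean 1; 0.781 to 1.102 in Tl1a-tg and 0.591 to 1.46 in WT), means at the common depth, dispersions and normal 95% intervals were computed with Python 3.11.15 and pandas 2.3.3, and the code was tested on simulated data. Intervals rest on the authors' standard errors, and whether these include variation between mice is not known. The members and gene lists were chosen with earlier results of these data known. Named are the 9 members, the 3 genes of each list with the smallest p and the 3 with the highest mean, and the gene nearest to each member; 1 gene that this rule names is not reported here. Promoter windows are from RefSeq, GRCm38.p6; Spink4, Ern2, Galnt12 and Creb3l1 had none printed.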

Additional observations from a re-analysis of the deposited data

How the results depend on the processing

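The count of members called was 0 with p-values adjusted over every gene that has one, at a threshold of 0.1, and with near-0 means set to the value of genes without reads, and was 2 with unadjusted p-values. Over all genes the count of 61 became 0 with near-0 means set so, 60 with adjustment over every p-value and 64 at 0.1. Over these alternatives the adjusted p of Ern2 and Agr2 lay between 0.23 and 0.34. The members' median log2 fold change of 1.22 stayed positive under all 8 alternatives, between 0.15 after shrinkage and 1.60 with the median of measured genes, -0.38, set to 0; it was 0.44 over the 4 members with at least 10 reads in both genotypes. Of 63 single-gene alternatives, 46 differed from the deposited value by less than its standard error and kept its sign, 14 differed by more with the same sign, and 3 turned sign. The log2 fold change of Muc2 was 0.29 after centring and 0.00072 as a share of the total without Rn45s, and that of Spink4 was -0.070 with library factors left in, which moved all genes by -0.23. Each is a shift of all genes together. No paired analysis was possible because the deposited columns hold 1 fitted mean per genotype; for the same reason no replicate could be left out.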

Other observations

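Genes fitted near 0 in a genotype, the class of Spdef and Fcgbp, differed from genes at the shared value of about 0.2 in how much of their deposited mean was inferred to lie outside the 6 libraries. Among genes read in Tl1a-tg only, the median share was 90.4% for 275 genes with WT near 0 and 0.311% for 1961 genes with WT at the shared value. Among genes read in WT only, it was 28.4% for 245 genes with Tl1a-tg near 0 and 0.899% for 919 genes at the shared value. Of the 61 genes called in the authors' deposited table, 41 and 19 fell in the near-0 classes of the 2 directions and 0 in the others; the remaining 1 had no reads in either genotype. Agr2 and Galnt12 belong to the genes at the shared value, and Spdef and Fcgbp had no p-value. These are counts over genes of 1 fit, with no test.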
